A study of Mus musculus with 7 samples.

Results

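DNA replication and S phase genes make the proteins that license origins, open and copy DNA, and supply its building blocks. The 39 genes described here were chosen by name, as a given list of rows of a count table of 23337 gene symbols. All 39 were in the table, and all 39 passed the low-count filter, with 14691 genes tested in all. RNA came from left ventricles of 7 mouse embryos, 5 control and 2 labelled mutant, dissected at embryonic day 12.5 (E12.5), and poly(A) RNA was sequenced single-end. Controls were Tbx5+/+ and the embryos labelled mutant were Tbx5flox/flox, that is, with both copies of Tbx5 flanked by loxP sites. All 7 carried Gt(ROSA)26Sortm1(cre/ERT2)Tyj, a tamoxifen-inducible Cre expressed from the widely active Rosa26 locus and not limited to the heart, and all were exposed to tamoxifen, injected intraperitoneally into the mother at E11.5. The comparison asks which left ventricular transcripts depend on TBX5, a heart transcription factor of the T-box family.

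Before S phase, the origin recognition complex with CDC6 and CDT1 loads the MCM2 to MCM7 ring onto DNA, and geminin, the product of Gmnn, blocks CDT1 once replication has begun. Kinases, among them cyclin E with its partner CDK2, then let CDC45 and the GINS complex join the ring to form the active helicase. DNA polymerase alpha and primase start each strand, polymerases epsilon and delta extend it, the RFC clamp loader places the PCNA clamp, RPA covers single strands, and FEN1 and DNA ligase I join the lagging-strand fragments. Ribonucleotide reductase, thymidylate synthase and thymidine kinase supply deoxynucleotides. Many of these genes are transcribed under E2F factors as cells enter S phase, and most cell types of the embryonic ventricle, cardiomyocytes included, still divide.

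The libraries held 20268208 to 24440806 counts, and the replication genes took 0.390% to 0.474% of them, with the lowest share in control 5 and the highest in mutant 1. Levels are given below in CPM, counts scaled to a common library total with TMM factors. The libraries are called control 1 to 5 and mutant 1 and 2, after their labels. Tbx5 itself was no lower in mutants than in controls: it stood at 76.8 ± 13.7 CPM (SD, n = 5) in controls and at 93.9 and 114 CPM in mutants 1 and 2 (log2 fold change 0.43, SE 0.15, adjusted p = 0.181). A whole-gene count does not check a deletion of part of a gene, so this value neither backs nor contradicts the labels. Xist, the transcript of the inactive X chromosome, was at 0.689 and 1.09 CPM in controls 1 and 3 and at 311 to 509 CPM in the other 5 libraries, so those controls differ from the rest in sex. In a principal component analysis of the 14455 genes outside the lists used here, control 5 and mutant 2 stood at the low end of the second component (18.2% of the variance), at −27.9 and −14.2 against −3.06 to 21.0 in the others. Heart muscle was seen by its markers, and the chamber was not checked. The 14 cardiomyocyte genes summed to 34916 to 40848 CPM in controls and to 41460 and 46170 CPM in mutants 1 and 2. Of these 14, 1 was called higher. Markers of other cells differed as well. The 11 mesenchyme genes summed to 2727 to 4678 CPM in controls and to 1678 and 1662 CPM in the mutants, with 7 of 11 called lower (adjusted p under 0.05 in the test given below), and the 10 macrophage genes to 171 to 239 against 150 and 107 CPM, with 3 of 10 called lower. The 10 endothelial genes summed to 1304 and 1232 CPM in control 5 and mutant 2 and to 830 to 1014 CPM in the other 5 libraries. The 8 epicardial genes summed to 366 CPM in control 5 and to 500 to 553 CPM in the other controls. They summed to 416 and 305 CPM in mutants 1 and 2, with 1 of 8 called lower. The 13 erythroid genes summed to 4570 to 10039 CPM in controls against 5916 and 6278 CPM in the mutants. No marker of these lists was at 0 in all libraries, and the part of cell mixture in the values below was not tested. In such bulk tissue, fewer cells of a type and less RNA per cell cannot be told apart, and the labels do not name the embryos' litters, so a litter or batch effect cannot be told apart from genotype.

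None of the 39 replication genes was called changed between the groups. The test was edgeR's quasi-likelihood test with Benjamini-Hochberg adjustment over all 14691 genes at 0.05, which called 1.36% of all genes, 0.463% as higher and 0.899% as lower in mutants than in controls. The 39 log2 fold changes ran from −0.13 (Rfc4, a clamp loader subunit) to 0.34 (Rrm2, the small subunit of ribonucleotide reductase), or 0.916-fold to 1.26-fold. Their median was 0.049, with 28 positive and 11 negative, against a median of −0.0080 and 48.6% positive over all genes tested. The median absolute log2 fold change was 0.098, against 0.155 over all genes, which were not matched for expression level.

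At an unadjusted p under 0.05 stood 5 of the 39, all higher (Rrm2, Ung, Cdt1, Pole and Ccne1), and 0 lower, where all genes had 8.09% higher and 9.52% lower. By DESeq2's Wald test, an alternative, 2 of the 39 were called higher, Rrm2 (adjusted p = 0.00752) and Ung (adjusted p = 0.0467), where 5.35% of all genes were called. The edgeR likelihood ratio test called Rrm2 alone (5.26% of all genes), as did an adjusted p of 0.1 in the quasi-likelihood test (3.99% of all genes), and the fit with the replicate number as a block called 0 (5.52%). Both libraries labelled mutant lay above every control for 6 genes (Cdt1, Mcm2, Mcm6, Pole, Ung and Rrm2) and below every control for 0, against 9.73% and 10.4% of all genes tested.

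The intervals bound how large a change could have been missed. All 39 of the 95% intervals of the fold change lay within 1.5-fold in both directions, with outer bounds of 0.719 and 1.44, and 18 of 39 lay within 1.25-fold. A fall of 1.25-fold lay outside the interval of 32 genes and a rise of that size outside the interval of 24. Without mutant 1 the interval stayed within 1.5-fold for 33 of 39 genes, with outer bounds of 0.574 and 1.51, and without mutant 2 for 34, with outer bounds of 0.764 and 1.63. In these fits the mutant arm is 1 library, assumed to vary as the controls do. The median coefficient of variation of these genes among controls was 7.52%, against 10.7% over all genes, a comparison not matched for expression level. The p-values and intervals measure the spread between these embryos only.

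**Figure D1:**
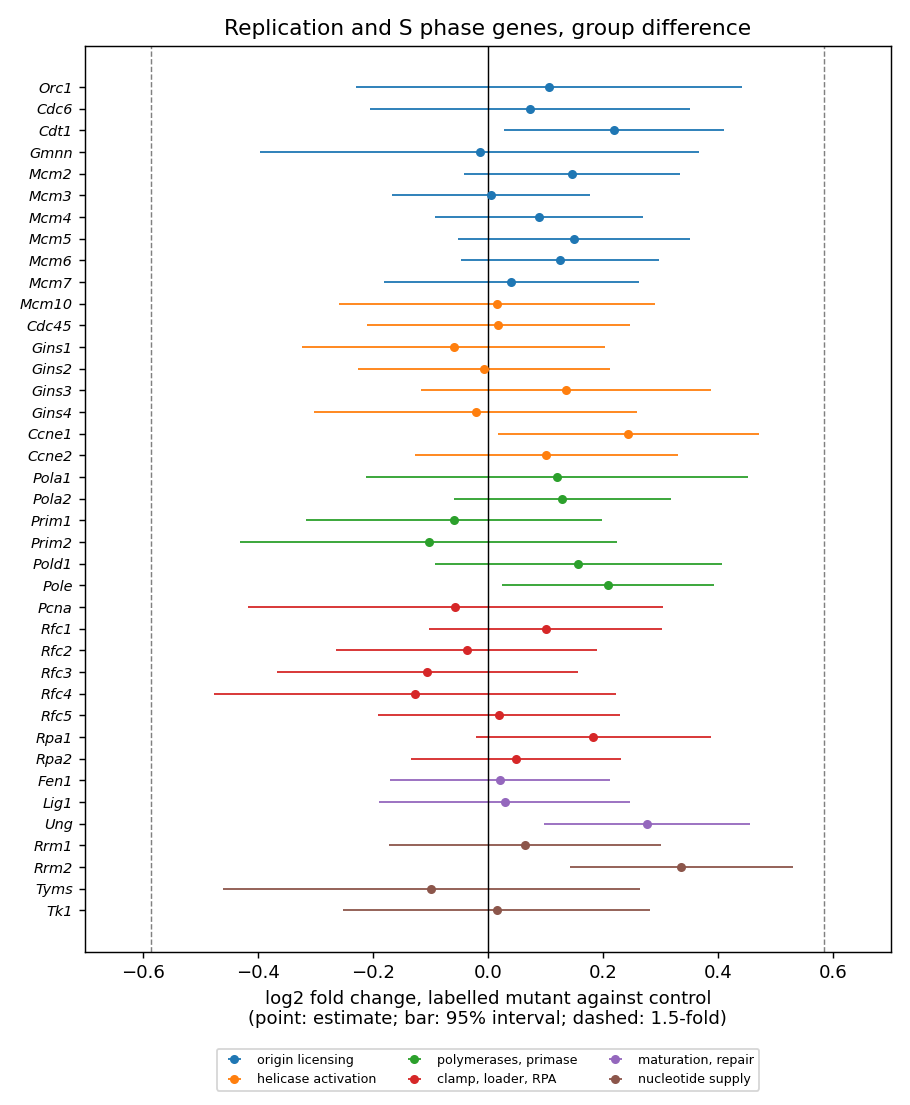
Log2 fold change of each of the 39 replication genes in libraries labelled mutant (n = 2) against controls (n = 5), with points for edgeR estimates, bars for 95% intervals, colours for roles and dashed lines at 1.5-fold. Estimates run from −0.13 to 0.34 and no bar reaches a dashed line.

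The promoters were searched for the binding motif of the E2F factors. RefSeq promoter windows of build GRCm38.p6, from 250 bases before to 50 after the annotated start, were matched for 30 of the 39 genes (34 promoters). The windows of Ccne2, Gins1, Gins2, Gins4, Gmnn, Mcm4, Pole, Prim2 and Rfc2 were not analysed here. E2F motifs were searched as TTTCCCGC, TTTGGCGC, TTTCGCGC and TTTGCCGC on both strands, and matches may overlap. A match was found in 12 of 34 promoters (35.3%), against 2.26% of the 32851 mouse promoters of this length. That comparison did not take expression level or base composition into account. The 4 printed first belong to the genes with a match and the lowest unadjusted p for the group difference, in 5′ to 3′ order of the gene, and capitals mark E2F matches. Cdt1 makes the licensing factor, Mcm5 and Mcm6 make subunits of the helicase ring, and Pold1 makes the catalytic subunit of polymerase delta. The Rrm2 window holds no match to these letters, and it was added after its values were seen because its difference was the largest. Its capitals mark a CCAAT box, the sequence bound by the factor NF-Y.
Cdt1 (chr8:122567765-122568064, plus strand): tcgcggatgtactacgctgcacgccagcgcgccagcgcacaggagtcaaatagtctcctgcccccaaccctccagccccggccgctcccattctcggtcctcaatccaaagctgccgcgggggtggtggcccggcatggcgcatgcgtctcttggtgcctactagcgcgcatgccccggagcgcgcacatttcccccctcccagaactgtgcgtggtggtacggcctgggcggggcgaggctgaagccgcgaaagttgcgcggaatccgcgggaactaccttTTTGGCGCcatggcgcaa
Mcm5 (chr8:75109259-75109558, plus strand): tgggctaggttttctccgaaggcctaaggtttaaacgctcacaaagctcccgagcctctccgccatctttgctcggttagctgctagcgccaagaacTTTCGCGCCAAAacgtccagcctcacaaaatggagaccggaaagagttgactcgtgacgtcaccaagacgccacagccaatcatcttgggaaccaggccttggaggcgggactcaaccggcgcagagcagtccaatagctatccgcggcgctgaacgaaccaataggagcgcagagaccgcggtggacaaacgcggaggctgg
Mcm6 (chr1:128359656-128359955, minus strand): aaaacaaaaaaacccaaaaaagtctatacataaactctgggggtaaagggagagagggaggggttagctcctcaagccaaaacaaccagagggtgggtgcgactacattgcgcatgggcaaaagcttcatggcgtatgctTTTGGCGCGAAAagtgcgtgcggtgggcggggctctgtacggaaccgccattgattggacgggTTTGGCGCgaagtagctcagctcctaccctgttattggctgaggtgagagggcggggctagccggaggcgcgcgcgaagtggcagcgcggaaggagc
Pold1 (chr7:44548766-44549065, minus strand): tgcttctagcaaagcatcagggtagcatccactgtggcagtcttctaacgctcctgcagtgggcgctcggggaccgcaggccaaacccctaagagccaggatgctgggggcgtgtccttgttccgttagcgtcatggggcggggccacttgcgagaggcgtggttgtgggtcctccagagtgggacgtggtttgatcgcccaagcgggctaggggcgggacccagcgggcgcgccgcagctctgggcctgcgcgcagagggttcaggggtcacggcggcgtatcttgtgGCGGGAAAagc
Rrm2 (chr12:24708004-24708303, plus strand): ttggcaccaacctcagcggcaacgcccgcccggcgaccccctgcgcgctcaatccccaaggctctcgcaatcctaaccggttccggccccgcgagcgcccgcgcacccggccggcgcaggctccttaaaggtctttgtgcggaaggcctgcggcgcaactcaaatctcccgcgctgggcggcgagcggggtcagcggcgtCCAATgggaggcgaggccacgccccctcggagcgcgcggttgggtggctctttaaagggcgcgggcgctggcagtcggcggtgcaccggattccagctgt

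In the Cdt1 and Pold1 windows the match begins 33 and 40 bases after the start, on the plus and minus strands of the gene. Mcm5 has a pair of overlapping matches on opposite strands, at 153 and 149 bases before the start. Mcm6 has a similar overlapping pair, at 110 and 106 bases before the start, and another match at 47 bases before it. CCAAT, counted on both strands and chosen after the values were seen, stood in 19 of 34 promoters (55.9%), against 37.4% of all, again unmatched. The log2 fold changes of the 12 genes with an E2F match had a median of 0.11 and 11 were positive, and those of the 18 genes with a window and no match had a median of 0.035 and 14 were positive. The ranges overlapped, from −0.11 to 0.22 with a match and from −0.13 to 0.34 without. For the 9 genes whose windows were not analysed, the median was −0.014 and 3 were positive.

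**Figure D2:**
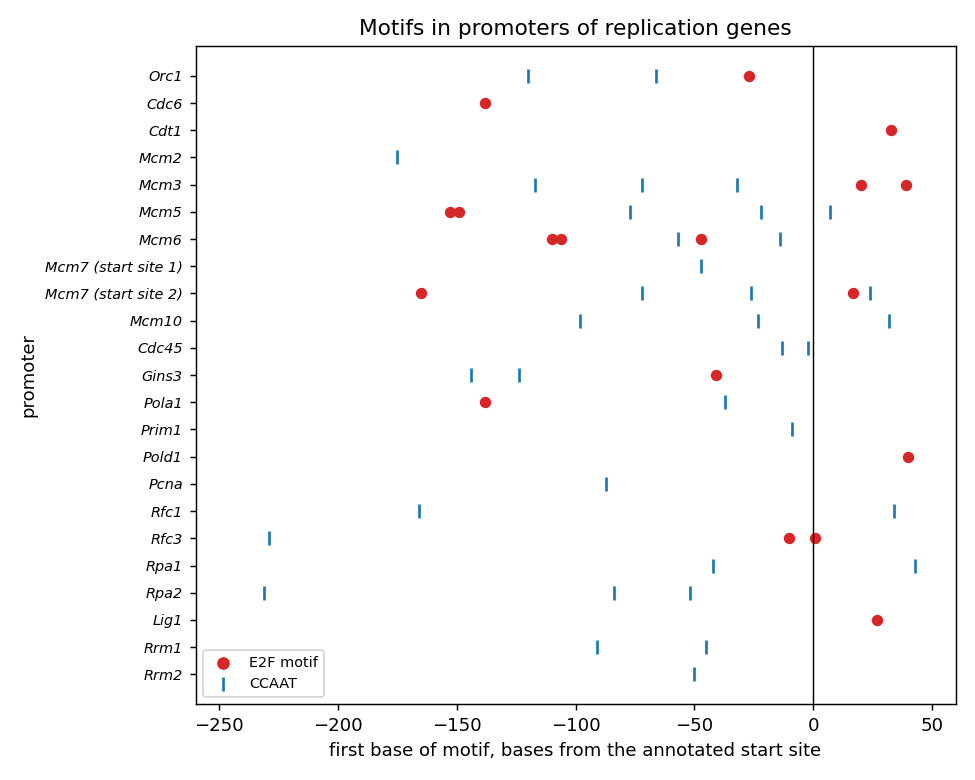
First base of each E2F motif (points) and CCAAT (bars) in bases from the annotated start site (vertical line), for the replication gene promoters with at least 1 match; promoters with none are not drawn. E2F matches lie in 12 of 34 promoters and CCAAT in 19.

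Of the 10 origin licensing genes (Orc1, Cdc6, Cdt1, Gmnn and Mcm2 to Mcm7), none was called, and 9 log2 fold changes were positive and 1 negative, with a median of 0.098. Cdt1 (chr8:122568015-122573554 in GRCm38) had the lowest p of the role. Its level was 68.1, 76.0, 71.1, 71.7 and 76.3 CPM in controls 1 to 5 and 90.6 and 78.6 CPM in mutants 1 and 2. The groups did not overlap, but mutant 2 stood only just above the highest control, and the difference was not called (log2 fold change 0.22, SE 0.087, adjusted p = 0.223, fold 1.16, 95% interval 1.02 to 1.33). Its log2 fold change was 0.11 without mutant 1 and 0.33 without mutant 2.

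The 6 genes of the helicase ring ranged from no difference to small positive ones. Mcm2 stood at 213, 230.4, 227, 229 and 205 CPM in controls and at 254 and 235 CPM in the mutants. Mcm6 stood at 252, 263, 256, 267 and 269.6 CPM in controls and at 293 and 277 CPM in the mutants. In these genes alone among the 6 both mutants lay above every control, by a small margin in mutant 2. Mcm5 was 179, 182, 198, 182 and 173 CPM in controls and 219 and 187 CPM in the mutants, and Mcm4 was 163, 169.8, 159, 164 and 167 against 187 and 163 CPM. For both, mutant 1 exceeded every control and mutant 2 lay within the control range. Mcm3 was 222, 224, 233, 224 and 228 CPM in controls and 236 and 218 CPM in the mutants, on either side of the controls. Mcm7, the most abundant of the licensing genes, was 262, 267, 302, 279 and 259 CPM in controls and 308 and 256 CPM in the mutants, again on either side of the controls. The log2 fold changes of Mcm2, Mcm3, Mcm4, Mcm5, Mcm6 and Mcm7 were 0.15, 0.0057, 0.089, 0.15, 0.13 and 0.041, with SEs of 0.078 to 0.10. Their adjusted p-values from edgeR's quasi-likelihood test ran from 0.400 to 0.980.

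The other licensing genes were no closer to a call. Orc1, the largest subunit of the origin recognition complex, was the least abundant gene of the list and the only one with its highest value in control 4: 8.997, 10.2, 10.2, 12.8 and 9.44 CPM in controls and 10.8 and 11.4 CPM in the mutants. Cdc6, the ATPase that loads the ring, was 43.4, 41.2, 49.0, 46.8 and 37.3 CPM in controls and 51.3 and 40.3 CPM in the mutants. Gmnn, the inhibitor of CDT1, split by library and not by group, at 83.6, 76.6, 92.4, 83.1 and 59.7 CPM in controls and 92.9 and 63.7 CPM in the mutants. Control 5 and mutant 2 were its lowest libraries, and its log2 fold change was −0.014 (SE 0.17).

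Helicase activation, with 8 genes, had a median log2 fold change of 0.017, 5 positive and 3 negative, and none called. Ccne1 and Ccne2 make cyclin E1 and cyclin E2, which act with CDK2 at the entry to S phase. Ccne1 (chr7:38097984-38107534) was at 29.1, 31.4, 35.3, 30.7 and 33.3 CPM in controls and at 40.7 and 35.1 CPM in the mutants (log2 fold change 0.24, SE 0.10, adjusted p = 0.247). Mutant 2 lay below the highest control, so the groups overlapped, and the value was 0.14 without mutant 1 and 0.36 without mutant 2. Ccne2, the most abundant gene of this role, was at 66.2, 61.1, 58.8, 63.1 and 51.6 CPM in controls and at 68.2 and 60.9 CPM in the mutants (log2 fold change 0.10, SE 0.10, adjusted p = 0.649). Again mutant 2 sat inside the control range. Ccne2 overlaps Ints8 on the opposite strand over 17.4% of its exon bases.

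The helicase partners themselves differed little between groups. Log2 fold changes of the 4 GINS subunit genes were −0.059 (Gins1), −0.0065 (Gins2), 0.14 (Gins3) and −0.021 (Gins4). For Cdc45 and Mcm10, a factor that helps to start the assembled helicase, they were 0.018 and 0.016. In all 6 of these genes, and in Ccne2, control 5 was the lowest control. Gins2 overlaps the gene Gse1 on the opposite strand over 67.3% of its exon bases. The strand setting is not known, so the Gins2 count may include reads of Gse1 or miss reads that both genes share.

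Among the 6 polymerase and primase genes the median log2 fold change was 0.12, with 4 positive and 2 negative, and none was called. Pole (chr5:110286306-110337474) makes the catalytic subunit of polymerase epsilon, the leading-strand enzyme. Of the 39 genes it had the mutants closest to each other in CPM ratio: 60.1, 62.9, 59.99, 66.2 and 56.2 CPM in controls and 71.2 and 70.0 CPM in mutants 1 and 2. The groups did not overlap, and the difference missed the threshold (log2 fold change 0.21, SE 0.083, adjusted p = 0.228, fold 1.16, 95% interval 1.02 to 1.31). Pola1, the catalytic subunit of polymerase alpha and the most abundant gene of the role, was at 79.1, 70.0, 75.9, 73.9 and 52.9 CPM in controls and 85.9 and 67.1 CPM in the mutants (log2 fold change 0.12, SE 0.15, adjusted p = 0.719). It was lowest in control 5 and next lowest in mutant 2. Pold1 was at 70.4, 69.7, 61.9, 65.3 and 77.0 CPM in controls and 86.2 and 67.6 CPM in the mutants, with only mutant 1 outside the control range. For Pola2, an accessory subunit of polymerase alpha, the log2 fold change was 0.13 (SE 0.085), and for the primase subunit genes Prim1 and Prim2 it was −0.059 (SE 0.12) and −0.10 (SE 0.15).

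The clamp, clamp loader and single-strand binding genes were centred on no difference, with a median of −0.0086 over 8 genes, 4 positive and 4 negative, and none called. Pcna (chr2:132249162-132253314), the sliding clamp and a common marker of proliferating cells, was at 376, 361, 395, 343 and 263 CPM in controls and at 387 and 281 CPM in mutants 1 and 2. Control 5 and mutant 2 formed a low pair and the other 5 libraries a higher set, and the group difference was small with a wide interval (log2 fold change −0.057, SE 0.16, adjusted p = 0.890, fold 0.961, 95% interval 0.749 to 1.23). Without mutant 1 its log2 fold change was −0.31, and without mutant 2 it was 0.17. Rpa1, the large subunit of the single-strand binding protein RPA, had the lowest p of the role, at 157, 173, 185, 166 and 173 CPM in controls and 208 and 179 CPM in the mutants (log2 fold change 0.18, SE 0.093, adjusted p = 0.336). Mutant 2 stayed below control 3, the highest control, and the value was 0.072 without mutant 1 and 0.30 without mutant 2. The log2 fold change of Rpa2, another RPA subunit, was 0.049 (SE 0.083).

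The 5 clamp loader genes Rfc1 to Rfc5 had log2 fold changes of 0.10, −0.037, −0.11, −0.13 and 0.020, with SEs of 0.091 to 0.16. Rfc4, with the lowest estimate of the 39 genes, was at 65.8, 61.3, 69.4, 66.6 and 47.1 CPM in controls and 65.6 and 48.0 CPM in the mutants. Like Pcna it was low in control 5 and mutant 2 and higher in the rest. Rfc4 overlaps Eif4a2 on the opposite strand over 12.7% of its exon bases.

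Fragment joining and base repair were covered by Fen1, Lig1 and Ung, all with positive log2 fold changes (median 0.029) and none called. Ung (chr5:114130386-114139323) makes uracil-DNA glycosylase, which removes uracil from DNA, also behind the replication fork. Its level was 43.3, 42.4, 43.4, 46.0 and 47.2 CPM in controls and 55.1 and 52.7 CPM in the mutants. Both mutants lay above every control, and the difference had the second lowest p of the list (log2 fold change 0.28, SE 0.081, adjusted p = 0.117, fold 1.21, 95% interval 1.07 to 1.37). It kept its sign in all 22 fits that were run, with log2 fold changes of 0.25 to 0.34 and adjusted p-values of 0.0467 to 0.445. Lig1, which makes DNA ligase I, was at 134, 151, 149.7, 134 and 159 CPM in controls and 160.0 and 137 CPM in the mutants (log2 fold change 0.029, SE 0.10, adjusted p = 0.910). For Fen1, the flap endonuclease, the log2 fold change was 0.021 (SE 0.086), and 84.2% of its exon bases overlap Tmem258 and Gm10143 on the opposite strand, so its count is uncertain.

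Nucleotide supply held the largest difference of the list, in Rrm2, which makes the small subunit of ribonucleotide reductase, the S phase-limited part of the enzyme. Rrm2 (chr12:24708241-24714146) stood at 233, 245, 244, 236 and 224 CPM in controls 1 to 5, 236 ± 8.62 CPM (SD, n = 5), and at 322 and 275 CPM in mutants 1 and 2. Both mutants were above every control, mutant 1 by the larger margin. The log2 fold change was 0.34 (SE 0.088, adjusted p = 0.0899 by edgeR's quasi-likelihood test), or 1.26-fold with a 95% interval of 1.10 to 1.44, which missed the threshold. It was positive in all 22 fits that were run, at 0.22 to 0.46, with adjusted p-values of 0.00752 to 0.314. Without mutant 1 it was 0.22, and without mutant 2 it was 0.46.

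Rrm1, the large subunit of the same enzyme, was more abundant in CPM and had mutant 1 only just above the highest control: 378, 369, 421, 435 and 353 CPM in controls and 436 and 382 CPM in the mutants (log2 fold change 0.065, SE 0.11, adjusted p = 0.797). Mutant 2 lay inside the control range. Tyms, which makes thymidylate synthase, was at 53.3, 55.2, 61.9, 58.5 and 46.5 CPM in controls and 63.2 and 39.8 CPM in the mutants, which were its highest and its lowest library (log2 fold change −0.10, SE 0.16, adjusted p = 0.798). Without mutant 1 its log2 fold change was −0.47 (unadjusted p = 0.0105, adjusted p = 0.119 by edgeR) and without mutant 2 it was 0.21, the widest swing of the 39 genes between these fits. Tk1, thymidine kinase of the salvage route, was also highest in mutant 1 (98.9 CPM) and lowest in mutant 2 (72.5 CPM), with controls at 85.1, 79.1, 94.2, 86.3 and 78.9 CPM.

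The libraries labelled mutant differed from each other in 1 direction over nearly the whole list. In mutant 1 all 39 genes stood above the control mean, where 47.4% of all genes tested did, and 28 of 39 (71.8%) stood above every control, against 18.6% of all genes. In mutant 2 only 14 of 39 stood above the control mean, 6 above every control and 9 below every control, against 47.9%, 27.0% and 26.7% of all genes. Mutant 1 exceeded mutant 2 in 38 of the 39, all but Orc1, and in 49.5% of all genes. The ratio of mutant 1 to mutant 2 ran from 0.950 for Orc1 and 1.02 for Pole to 1.59 for Tyms. Mutant 1 was the highest of the 7 libraries for 28 genes, control 3 for 10 and control 4 for 1. These counts describe genes that are measured in the same libraries and are not independent of each other.

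Control 5 was the low counterpart. It lay below the other 4 controls for 25 of 39 genes (64.1%), against 28.5% of all genes tested, and was the lowest of all 7 libraries for 18 (46.2% against 16.6%). Mutant 2 was the lowest for 9 and control 1 for 7. By role, control 5 was the lowest control for 7 of 8 helicase activation genes, 4 of 4 nucleotide supply genes, 4 of 6 polymerase and primase genes, 5 of 8 clamp, loader and RPA genes, 5 of 10 licensing genes and 0 of 3 joining and repair genes. Control 5 and mutant 2 were the lowest pair of all 7 libraries for 17 of 39 genes (43.6%), among them Gmnn, Pcna, Rfc4 and Prim2, named after the values were seen, against 13.3% of all genes. Cdt1, Ung, Rpa1, Pold1 and the MCM genes Mcm3, Mcm4 and Mcm6 were among the 14 genes whose lowest control was another library. The same control 5 and mutant 2 had the highest summed endothelial and the lowest summed epicardial markers. They were also lowest on the second principal component but stood apart on the first (36.9% of the variance), at −7.52 and 38.9. The part of any of these in the replication values was not tested.

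**Figure D3:**
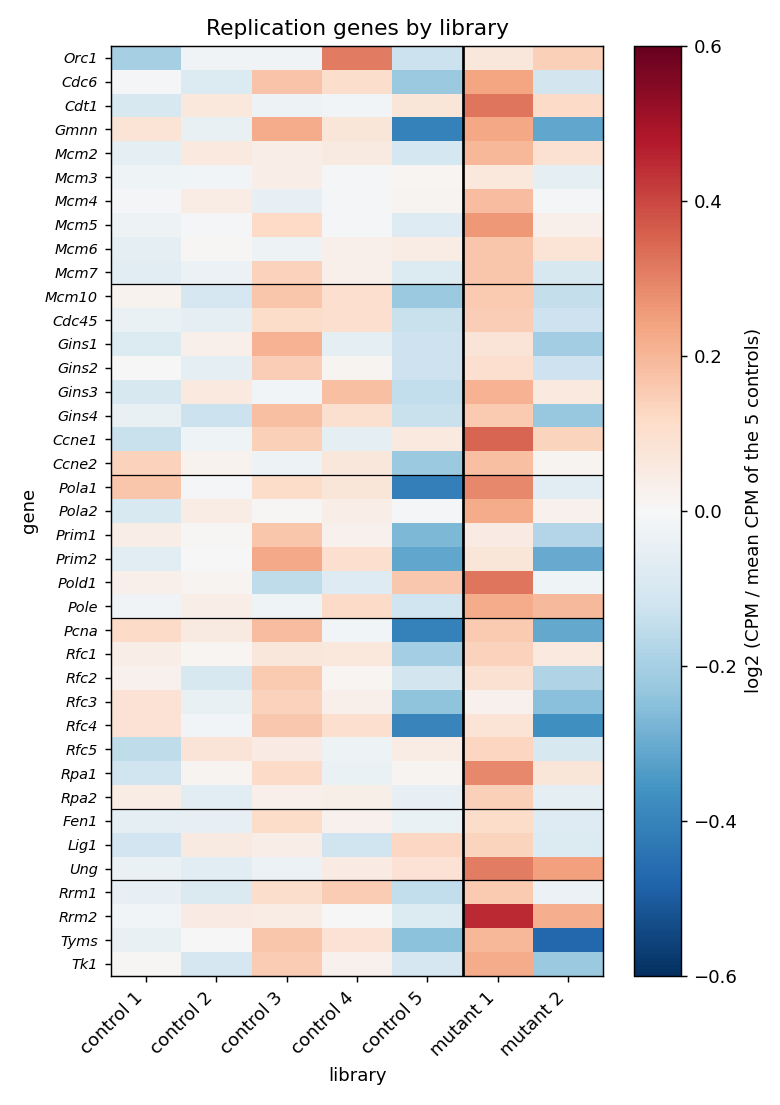
Log2 ratio of each replication gene's CPM to the mean CPM of the 5 controls (colour), with genes in rows ordered by role and the 7 libraries in columns. The mutant 1 column is above 0 for all 39 genes, and control 5 and mutant 2 hold most of the lowest values.

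The score of a library, the mean log2 CPM over the 39 genes with a prior count of 2, shows the same arrangement. It was 6.25, 6.26, 6.35, 6.31 and 6.15 in controls 1 to 5 (mean 6.26 ± 0.077, SD, n = 5), and 6.45 and 6.20 in mutants 1 and 2. Mutant 1 was above every control and mutant 2 was second lowest, above control 5 alone. The mean difference between groups was 0.062, or 1.04-fold, less than the SD between controls. It was −0.062 without mutant 1 and 0.20 without mutant 2. With control 5 and mutant 2 both left out, a setting chosen with their low values known, it was 0.17, with 37 of the 39 log2 fold changes positive (48.4% of all genes). Leaving out the lower mutant raises the difference by construction, and the mutant arm is then 1 library.

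Marking control 5 and mutant 2 with a covariate in the edgeR fit, an alternative chosen after seeing the data, left 1 of the 39 called, Rrm2 (adjusted p = 0.0199), against 2.71% of all genes. In that fit 11 of the 39 (28.2%) had an unadjusted p under 0.05, all higher, where all genes had 8.64% higher and 10.1% lower. That covariate was defined from the libraries and is not a group of the study. Control 5 and mutant 2 were marked with their low values known, so lower p-values for these genes can follow from that choice.

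**Figure D4:**
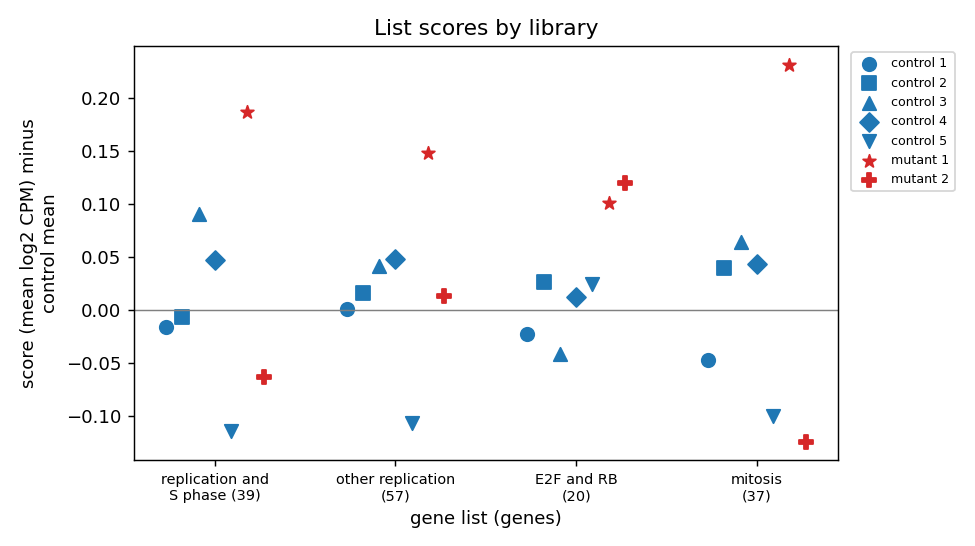
Score of each library (mean log2 CPM of a list) minus the mean of the 5 controls, for 4 gene lists with the number of genes in brackets; blue marks are controls and red marks the libraries labelled mutant. Mutant 1 is above every control in all 4 lists, and mutant 2 is above every control only for the E2F and RB genes.

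Per length, transcript levels spanned a wide range. RPKM was computed here as CPM per kilobase of the longest principal transcript in GENCODE vM21, build GRCm38. Pcna was highest at 229 ± 33.7 RPKM in controls (SD, n = 5), followed by Rrm2 at 108 ± 3.93, Rrm1 at 97.9 ± 8.79, Mcm7 at 92.5 ± 5.86 and Mcm6 at 89.8 ± 2.49. The median of the 39 genes was 26.5 RPKM, and Orc1 was lowest at 3.42 ± 0.493. Control ranges of neighbours in this order mostly overlapped: in only 5 of 38 neighbouring pairs did they not. Neighbours were not compared within each library, where their order can still be the same throughout.

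Subunits of 1 complex did not all stand at the same level. The MCM ring genes ran from 45.9 ± 1.09 RPKM for Mcm4 to 92.5 ± 5.86 for Mcm7, and the loading factor Cdc6 from the same step stood at 17.0 ± 1.80. Among the GINS genes, Gins4 (29.0 ± 2.86) and Gins1 (25.7 ± 2.44) were above Gins2 (11.6 ± 0.813) and Gins3 (7.48 ± 0.679). The Gins2 level is uncertain because of its overlap with Gse1. The catalytic polymerase genes were lower than their clamp: Pold1 stood at 19.9 ± 1.66, Pola1 at 13.2 ± 1.92 and Pole at 8.53 ± 0.523 RPKM. The order depends on the length used, since Rrm1 over all its annotated exon bases would be at 35.5 RPKM. By that length Mcm2, at 31.8 RPKM, would be the lowest of the MCM ring, with Mcm4 at 45.9 and Mcm7 at 61.9. Exons of 13 of the 39 genes overlap another gene, and Pcna and Tyms have named pseudogenes that could share reads. The overlap exceeds 10% of exon bases in 8 genes: Fen1, Gins2, Ccne2, Rfc2, Rfc4, Mcm7, Orc1 and Rfc5.

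**Figure D5:**
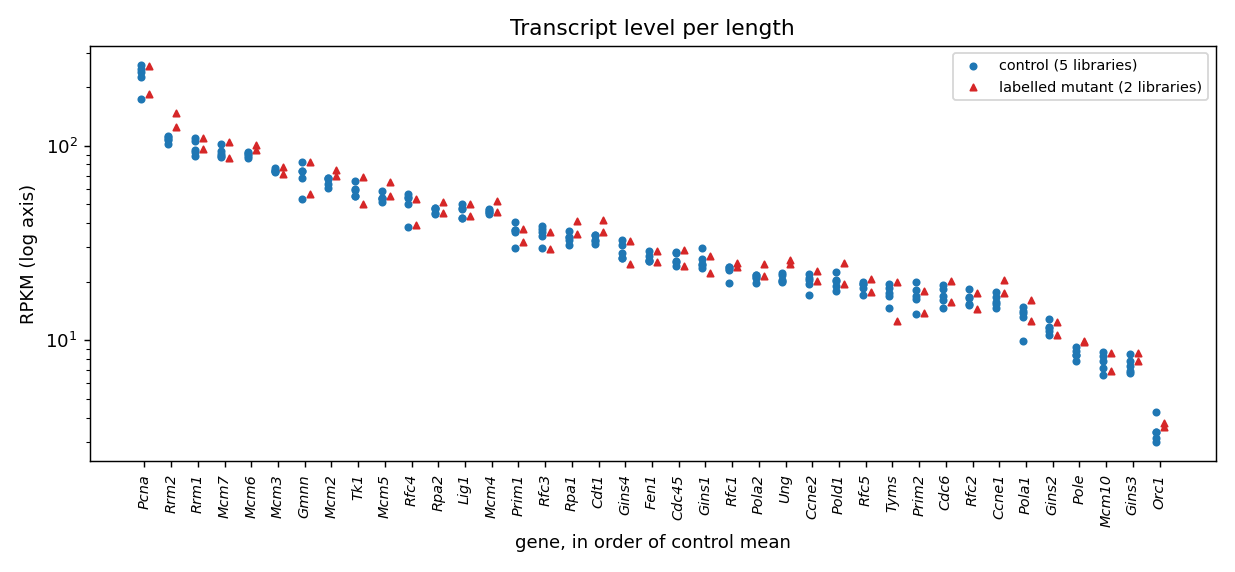
RPKM (log axis) of the 39 replication genes in each library, ordered by control mean, with circles for 5 controls and triangles for 2 libraries labelled mutant. Pcna is highest and Orc1 lowest, and most neighbouring genes overlap in their control values.

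Of 58 further replication genes (origin recognition, checkpoint, chromatin assembly and repair factors), 57 were tested, all but Ticrr, and 0 were called (2 by DESeq2). Their median log2 fold change was 0.10, with 38 of 57 positive. At an unadjusted p under 0.05 stood 12 of them, all higher, against 8.09% of all genes, and both mutants were above every control for 16 (9.73% of all genes) and below every control for 0. Their score was 5.41 to 5.57 in controls and 5.66 and 5.53 in mutants 1 and 2, so mutant 2 lay inside the control range. Mutant 2 was above the control mean for 31 of 57, against 14 of the 39 and 47.9% of all genes. It was above every control for 19 and below every control for 14 (27.0% and 26.7% of all genes). The 2 of lowest p were Tonsl, which acts at damaged forks (log2 fold change 0.42, SE 0.10, adjusted p = 0.0752), and Clspn, which makes the checkpoint adaptor claspin (log2 fold change 0.31, SE 0.080, adjusted p = 0.0915), named after their values were seen. Nasp, a histone chaperone and the most abundant of this set, was at 281, 309, 306, 296 and 251 CPM in controls and 326 and 297 CPM in the mutants (log2 fold change 0.11, SE 0.10, adjusted p = 0.605).

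The 20 E2F and RB family genes, which include factors that govern the replication genes at the entry to S phase, had 0 called (0 by DESeq2), 17 positive and a median log2 fold change of 0.10. Over all genes 48.6% were positive. At an unadjusted p under 0.05 stood 4 of 20, all higher (E2f1, Tfdp2, Rbl1 and Foxm1), against 8.09% of all genes higher and 9.52% lower. Their score was 4.74 to 4.81 in controls and 4.88 and 4.90 in mutants 1 and 2. Unlike the replication genes, this list did not place mutant 2 among the low libraries, a description with no test. Tfdp1, the E2F partner and the most abundant of the list, was at 97.4, 97.8, 99.7, 101 and 94.6 CPM in controls and 102 and 89.7 CPM in the mutants (log2 fold change −0.037, SE 0.080, adjusted p = 0.852).

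Of 17 kinase, cyclin and inhibitor genes around the entry to S phase, 1 was called higher and 0 lower (0.463% and 0.899% of all genes), with a median log2 fold change of 0.10. At an unadjusted p under 0.05 stood 2 of 17, Wee1 and Cdk6, both higher, against 8.09% of all genes higher. The called gene was Wee1, which makes the kinase that holds back CDK1 and CDK2. Wee1 was at 56.3, 61.5, 58.0, 61.2 and 65.8 CPM in controls and 82.4 and 80.8 CPM in the mutants (log2 fold change 0.43, SE 0.082, adjusted p = 0.0349). Both mutants were above every control and close to each other. The call was lost on leaving out control 1, 2, 3 or 4 or either mutant, with log2 fold changes of 0.41 to 0.47 and adjusted p-values of 0.0226 to 0.208 over the 7 libraries left out in turn. Cdkn1c, the CDK inhibitor p57 and the most abundant of this set, was at 554, 676, 701, 552 and 709 CPM in controls and 614 and 614 CPM in the mutants (log2 fold change −0.056, SE 0.12, adjusted p = 0.851).

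The 37 mitosis genes had 0 called (0 by DESeq2), 0 at an unadjusted p under 0.05 and a median log2 fold change of 0.063, with 27 positive. Mutant 1 exceeded mutant 2 in 37 of 37 (49.5% of all genes) and every control in 33 (18.6% of all genes), and both mutants were above every control for 0 (9.73% of all genes). Their score was 6.87 to 7.03 in controls and 7.20 and 6.84 in mutants 1 and 2, so the arrangement of libraries resembled that of the replication genes. Top2a, the topoisomerase of dividing cells and the most abundant of the list, was at 714, 695, 765, 716 and 593 CPM in controls and 792 and 632 CPM in the mutants (log2 fold change 0.032, SE 0.12, adjusted p = 0.918). E2F matches stood in 5.71% of 35 mitosis promoters, against 35.3% for the replication genes, and CCAAT stood in 85.7% of them, against 55.9%.

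The authors' deposited table of significant genes lists 668 genes, 2.86% of the 23337 in the count table. It holds 0 of the 39 replication genes. Of the other lists, the authors' deposited table holds Tonsl (log2 fold change 0.41, false discovery rate 0.0392) and Wee1 (0.42, false discovery rate 0.00304).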

How the data were processed

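Left ventricular poly(A) RNA of 5 control and 2 mutant-labelled embryos was compared, with groups and replicate numbers from the sample titles. The deposited count table gives raw whole-number counts for each gene symbol. Per the submitters' processing notes, limma 3.30.13, edgeR 3.16.5, R 3.3.2, featureCounts and TopHat2 2.1.1 were used with build mm10. Which annotation and strand setting went into the counts is not given in the sources used here. In the authors' deposited list are a p-value, a false discovery rate and a fold change read here as log2 because it lies close to the log2 values from the counts, and per the file headers no test is named.

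The counts went into edgeR 4.0.16 (R 4.3.3): filterByExpr (minimum count 10, minimum total 15), TMM factors, glmQLFit and glmQLFTest with robust estimation, genotype as the only term, and Benjamini-Hochberg adjustment over 14691 genes at 0.05. The common biological coefficient of variation was 0.128. The SE is the log2 fold change divided by the square root of F, and 95% intervals use the fit's degrees of freedom. Within groups, chi-square per degree of freedom was 8.67 to 27.3 over 11 pairs of libraries, so none was a copy. The fit was tested on counts simulated independently for each gene. These held no shift shared by many genes of a library, so the simulation does not check the fit under such shifts.

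The genes, lists and tests were chosen with earlier results of these data known. In each role, values of every library are given for the genes of lowest p and of highest mean CPM, called genes being taken first (up to 4 per role), and for Mcm2 to Mcm7. From the other lists the called genes of lowest p (up to 3) and the most abundant gene were taken. Further genes were named after their values were seen. Alternatives were DESeq2 1.42.0, limma 3.58.1 (voom), other scalings, filters and thresholds, libraries left out, Xist state, the replicate number as a block and, chosen after seeing the data, an edgeR likelihood ratio test and a covariate for 2 libraries. Promoters and lengths came from RefSeq GRCm38.p6 and GENCODE vM21. Motifs were searched in Python 3.11.15, and figures were drawn with matplotlib 3.10.9.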

Additional observations from a re-analysis of the deposited data

Results flagged for a closer look

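Of 62 sets of 5 control values checked for a single distant library (the replication genes, the list scores and other named genes), 3 had one, where chance gives about 1 in 20. All 3 concern control 5. Rfc1 was at 93.8 CPM in control 5 and at 109 to 113 CPM in the other controls. The polymerase and primase score, a mean log2 CPM, was 5.63 in control 5 and 5.80 to 5.85 in the others. The epicardium score was 5.27 in control 5 and 5.79 to 5.90 in the others.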

How the results depend on the processing

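With 2 embryos labelled mutant, the group difference turned on which one was kept: the median log2 fold change of the 39 genes was −0.068 without mutant 1 and 0.18 without mutant 2, and the score difference −0.062 and 0.20. With control 5 and mutant 2, the low libraries, both left out these were 0.15 and 0.17. The count of called replication genes was 0 in all 7 fits that left out 1 library. It was 2 by DESeq2's Wald test, 1 with the covariate for control 5 and mutant 2, 1 by the likelihood ratio test and 1 at an adjusted p of 0.1, and 0 in the other alternatives. All called genes, 200, became 786 by DESeq2, 119 by limma-voom, 773 by the likelihood ratio test, 398 with the covariate and 586 at 0.1. They were 12 to 275 on leaving out 1 library (12 without mutant 2), 66 without controls 1 and 3, 52 without control 5 and mutant 2, and 60 with Xist state as a covariate.

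Of the other replication genes, 0 in the chosen fit, 2 were called by DESeq2, 2 by the likelihood ratio test, 1 with the covariate and 2 at 0.1. The S phase kinase count of 1 became 0 by limma-voom, 0 without controls 1 and 3, 0 without control 5 and mutant 2, 0 with Xist state, 0 to 1 on leaving out 1 library and 2 with the covariate. On leaving out 1 library, 25 of the 39 genes changed sign, each in at least 1 fit without mutant 1 or 2, which assumes that the lone mutant varies as the controls do. For the genes taken by the naming rule whose sign changed, other lists included, the ranges were Mcm3 (−0.053 to 0.074), Mcm4 (−0.010 to 0.19), Mcm7 (−0.096 to 0.18), Pola1 (−0.068 to 0.30), Pcna (−0.31 to 0.17), Lig1 (−0.083 to 0.15), Rrm1 (−0.033 to 0.17), Tfdp1 (−0.13 to 0.062) and Top2a (−0.14 to 0.20). Pcna was also positive at 0.056 without controls 1 and 3, 0.081 without control 5 and mutant 2, 0.052 with Xist state and 0.081 with the covariate, and Tfdp1 was 0.047 without control 5 and mutant 2. The cause of these changes was not tested. Of 483 values of 23 named genes under the alternatives, 451 kept their direction and side of the threshold, and 17 changed direction. All of these genes but Wee1 were uncalled in the chosen fit, so keeping the side of the threshold is a weak check.

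Controls and mutants share the numbers 1 and 2 in their titles. Deviations of same-numbered libraries had correlations of 0.078 and 0.012. Deviations of mutants 1 and 2 are opposite in sign by construction, so the crossed pairs gave −0.078 and −0.012. These values cannot decide whether the numbers mark a pairing. With the replicate number as a block, 811 genes were called (5.52%), 0 of the 39, 1 other replication gene and Tbx5, higher at a log2 fold change of 0.50 (adjusted p = 0.0156), and Cdkn1c had a log2 fold change of 0.0051.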
